A study of Mus musculus with 2 samples.

Results

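Naive-like CD8 T cells are splenic T cells that carry the CD8 co-receptor and few transcripts of 3 genes of cytotoxic cells, and they were taken here from single-cell RNA counts of the spleens of anaemic C57BL/6 mice. One library came from mice given PHZ injections and the other from mice that were bled, each repeated at intervals of 3 days over 1 month. The libraries hold live spleen cells with no sort for T cells, the number of mice in each is not given in the sources used here, and untreated mice were not analysed here. A barcode was counted as a member with at least 1000 unique molecular identifiers (UMIs), at least 300 genes, at most 10% mitochondrial UMIs and under 20% haemoglobin UMIs. It also had at least 2 UMIs of Cd3d, Cd3e and Cd3g together, at least 2 of Cd8a and Cd8b1, 0 of Cd4, 0 of Foxp3, at most 2 of Nkg7, Ccl5 and Klrd1 and at most 1 of Cd79a and Cd79b. The rule found 253 of 16152 cells, 39 of the 6445 PHZ cells and 214 of the 9707 bleeding cells. The cells were thus chosen by the measured UMIs of these 12 genes, whose levels are given as a description only. With 1 library per treatment no test between treatments was possible. Ratios are PHZ over bleeding, and their 95% intervals cover counting error only.

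CD8 T cells recognise peptides on MHC class I molecules through the T cell receptor, with the CD8 heterodimer as co-receptor. Naive CD8 T cells leave the thymus, circulate between blood, spleen and lymph nodes, and survive on contacts with self-peptides and on interleukin signals that maintain the anti-apoptotic protein BCL2. Cells that have divided in response to antigen or to cytokines gain CD44, the interleukin receptor chain CD122 encoded by Il2rb, the transcription factor EOMES and the chemokine CCL5. The transcription factors RUNX3 and ThPOK, the latter encoded by Zbtb7b, set the CD8 and the CD4 lineage apart in the thymus.

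The genes of the naive state that the rule did not use were present in the members of both libraries. Levels are in CPM, counts of a gene scaled to the total of the cell set without haemoglobin genes. Lef1, a transcription factor of naive T cells, was at 1325 CPM in PHZ and 1453 CPM in bleeding members, the order kept below. Tcf7, which encodes its partner TCF1, was at 557 and 467 CPM. Ccr7, a chemokine receptor gene of naive T cells, was at 125 and 156 CPM. In B cells, counted as cells with at least 4 UMIs of Cd79a and Cd79b, Lef1 was at 45.1 and 19.6 CPM and Tcf7 at 0.908 and 2.21 CPM. Ccr7 is not limited to T cells, and B cells held it at 66.7 and 59.999 CPM. Among the markers given for these cells, Dapl1 was at 354 and 266 CPM and Themis, a regulator of T cell receptor signalling, at 1035 and 1367 CPM. Neither was limited to CD8 T cells, since CD4 T cells held Dapl1 at 216 and 228 CPM and Themis at 1212 and 1152 CPM. When each cell was thinned to 3000 UMIs, which left out 0 and 1 members, 89.7% and 90.1% of members held a UMI of Cd8b1, against 0.131% and 0.206% of B cells; the unthinned shares were 100% and 99.1%. Gamma delta, NKT and NK cell genes were nearly undetected, with 1 and 5 UMIs over 10 genes, and 8 of the 10, among them Tcrg-C1, Zbtb16 and Ncr1, were at 0 in both libraries.

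The ceiling of 2 UMIs of Nkg7, Ccl5 and Klrd1 did not fall at a gap in the numbers of cells. Among all CD8 T cells of the bleeding library, 46, 67 and 101 cells had 0, 1 and 2 of these UMIs and 95, 87 and 76 cells had 3, 4 and 5. Among PHZ cells 7, 11 and 21 had 0, 1 and 2, and 18, 20 and 14 cells had 3, 4 and 5. Cells just inside and just outside the ceiling had similar depth, with medians of 9210 and 9480.5 UMIs per cell at 2 and 3 UMIs among PHZ cells, and of 8603 and 8750 among bleeding cells. Lef1 was at 1297 and 1404 CPM there among PHZ cells and at 1504 and 1605 CPM among bleeding cells. Other genes differed more across the ceiling, with Themis at 1009 and 2106 CPM, Bcl2 at 1575 and 987 CPM and Setbp1 at 144 and 0 CPM among the 21 and 18 PHZ cells, and Ly6c2 at 73.7 and 149.8 CPM among bleeding cells. CD8 T cells with 10 or more of these UMIs held Cd44 at 139.7 and 117 CPM, Ly6c2 at 747 and 867 CPM and Lef1 at 908 and 893 CPM. That limit was set by hand, since the counts run on past it to 17 UMIs. In the cells with 3 to 9 UMIs Cd44 was at 22.3 and 20.2 CPM, against 5.80 and 21.7 CPM in members. Members were 22.5% and 28.2% of all CD8 T cells, the cells with 3 to 9 UMIs were 49.1% and 56.4%, and those with 10 or more were 28.3% and 15.4%. The 85 and 429 cells with 3 to 9 UMIs are given below as a second set of CD8 T cells, which come from the same 2 libraries and so are no replicate of the treatments.

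**Figure D1:**
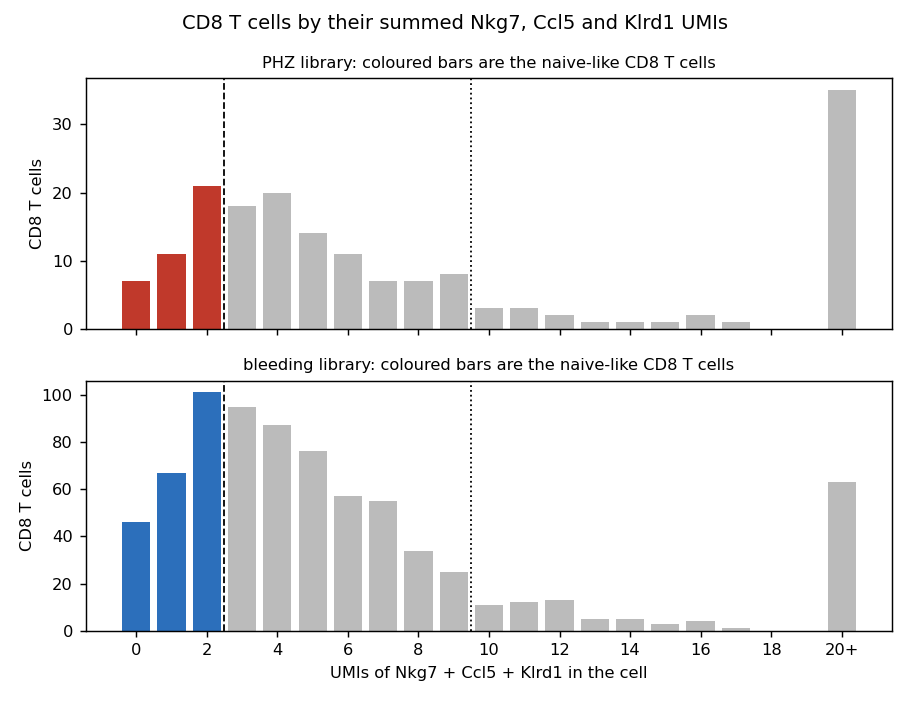
CD8 T cells of each library by their summed UMIs of Nkg7, Ccl5 and Klrd1 (x axis, UMIs in the cell; the last bar holds 20 or more), with the number of cells on the y axis. Coloured bars are the members, the dashed line is the ceiling of 2 UMIs and the dotted line lies above 9; the counts run on across the dashed line, from 101 to 95 cells in the bleeding library.

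**Figure D2:**
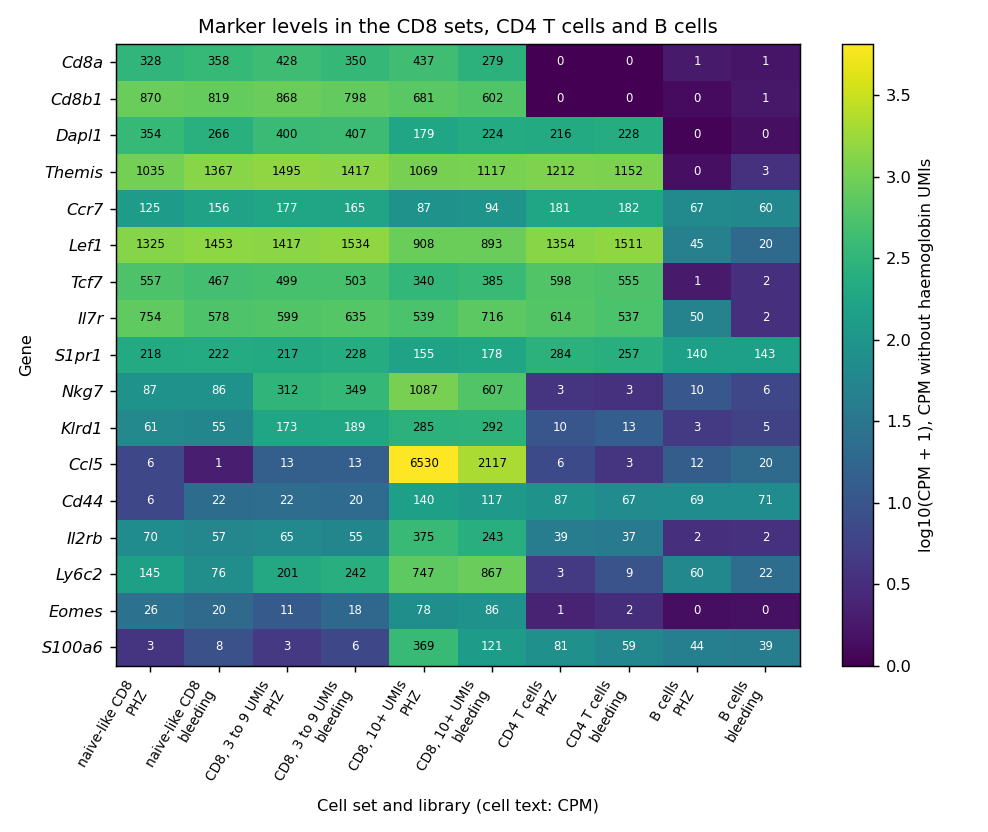
Levels of marker genes (rows) in CPM without haemoglobin UMIs, printed in each box and coloured on a log10 scale after adding 1, for the members, the other CD8 T cells, CD4 T cells and B cells of each library (columns). Lef1 and Tcf7 are close between the members and the CD8 T cells with 3 to 9 UMIs, while Cd44 and Ly6c2 are highest in the CD8 T cells with 10 or more.

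Members took a smaller share of the PHZ spleen cells. They were 0.605% of cells (exact Clopper-Pearson interval 0.431 to 0.826) after PHZ and 2.20% (1.92 to 2.52) after bleeding, a ratio of 0.274 (0.190 to 0.388). Cells with 20% or more haemoglobin UMIs were 49.6% and 30.2% of cells, and outside them members were 1.20% and 3.16%, a ratio of 0.380 (0.263 to 0.537). Within T cells the difference was smaller, with 7.39% and 10.2%, and the interval of the ratio of 0.724 (0.501 to 1.02) included 1. There were 0.217 members per CD4 T cell in the PHZ library (39 and 180 cells) and 0.312 in the bleeding library (214 and 685 cells), a ratio of 0.694 (0.462 to 1.02). As a share of all CD8 T cells, members had a ratio of 0.801 (0.554 to 1.13), an interval that included 1. CD8 T cells with 10 or more UMIs of the cytotoxic genes had a ratio of 1.84 (1.29 to 2.59) for that share. Of all cells this set was a lower share after PHZ, with 49 of 6445 PHZ cells and 117 of 9707 bleeding cells. These are shares of the cells recovered, and a lower share cannot be told apart from a higher number of other cells.

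The members had similar depth in both libraries, with a median of 9180 UMIs (3340 to 13669) and 2933 genes for PHZ and 8152.5 UMIs (1676 to 57151) and 2737 genes for bleeding. Their sums held 344787 and 1890629 UMIs without haemoglobin, so the PHZ library limits the precision. Haemoglobin was 0.885% and 0.890% of their UMIs, a likeness that depended on large bleeding cells. Without the members of over 20000 UMIs, the ratios of Hbb-bs, Hbb-bt, Hba-a1 and Hba-a2 were 1.29, 1.46, 1.59 and 1.55. No member barcode was shared between the libraries. Of the bleeding members, 7 had over 20000 UMIs, and none of the PHZ members did. Of these 7, 2 held 602 and 1134 UMIs of MHC class II genes and 30 and 34 of dendritic cell genes, 1 held 6068 UMIs of neutrophil genes, and 2 held 180 and 165 UMIs of erythroid genes. The remaining 2 held at most 6 UMIs of any of these lists or of proliferation genes. Of the 7, 3 were among the 754 bleeding cells with the highest doublet scores, a number set from the number of cells. Where a printed ratio or call changes with these 7 cells, its value without them is given for the main cases, a limit chosen after seeing the data.

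Genes of other cell types differed between the libraries, and most of the UMIs behind this were in the 7 cells. Over the 10 neutrophil genes the summed level was 165 CPM in PHZ members and 3302 CPM in bleeding members, a ratio of 0.0501, and 58.5 CPM in bleeding members without the 7 cells, a ratio of 2.82. Over the 14 B and plasma cell genes it was 209 and 1277 CPM, a ratio of 0.164, and 0.572 (0.442 to 0.732) without them; the B cell genes Cd22 and Ms4a1 had 0 UMIs in the PHZ members and 0 and 4 in the bleeding members. Over the 13 macrophage and dendritic cell genes the ratio was 0.187 with and 1.28 (0.717 to 2.17) without them. Over 12 erythroid genes it was 0.975 with and 1.40 (1.35 to 1.46) without them. If all haemoglobin UMIs of the members are taken as free RNA with the makeup of barcodes of 10 to 100 UMIs, free RNA would be 1.31% and 1.78% of the members' UMIs without haemoglobin. The bleeding value includes the haemoglobin UMIs of the 7 large cells and was not computed without them. The part of free RNA in single ratios was not tested.

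Between the treatments, 3264 genes had a mean of at least 50 CPM, and 136 of them (4.17%) were higher by 1.5-fold or more in PHZ members and 137 (4.2%) lower. The median log2 ratio of these genes was 0.02. Either way these were 273 genes (8.36%). Counting error alone can take a gene past this fold, and the count includes Bcl2l11, whose interval given below included 1. In the CD8 T cells with 3 to 9 UMIs, 81 of the 136 higher genes were above a ratio of 1 and 7 past 1.5-fold. Of the 137 lower genes, 92 were below 1 there and 15 past 1.5-fold. With the ceiling raised to 9 UMIs, which adds this second set of CD8 T cells, 14 genes were higher and 18 lower. Fewer genes were thus past 1.5-fold in the larger set. Without the 7 large cells 135 genes were higher and 103 lower.

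The survival and the cytokine receptor lists had higher summed levels in PHZ members, at ratios of 1.56 (1.43 to 1.69) and 1.26 (1.20 to 1.32). Bcl2, which is in both, gave 457 of their 734 and 1953 PHZ UMIs and 1158 of their 2587 and 8496 bleeding UMIs. A large part of the higher survival sum thus came from Bcl2. Bcl2 is the anti-apoptotic gene that interleukin signals maintain in naive T cells. Bcl2 was at 1325 CPM in PHZ and 612.5 CPM in bleeding members, with a UMI in 34 of 39 and 178 of 214 cells. The ratio was 2.16 (1.94 to 2.41). Thinned to 3000 UMIs per cell, 79.5% and 63.8% of members held a UMI of Bcl2, against 87.2% and 83.2% unthinned. Per cell, the PHZ members ranged from 0 to 40.7 UMIs per 10000 with a median of 10.0, and the bleeding members from 0 to 32.8 with a median of 4.21, so the 2 groups of cells overlapped over most of their range. Bcl2 was higher in the PHZ library in the other T cell sets too, by less, with 1134 and 721 CPM in CD8 T cells with 3 to 9 UMIs, a ratio of 1.57 (1.46 to 1.69), and 864 and 649.5 CPM in CD4 T cells, a ratio of 1.33 (1.245 to 1.42). In B cells its ratio was 0.960 (0.927 to 0.995). Without the 7 large cells the ratio in members was 1.98 (1.77 to 2.21), and without the 3 highest cells of each library 1.83 (1.62 to 2.08). The last step left out 3 of 39 PHZ and 3 of 214 bleeding cells, a larger part of the PHZ cells, which by itself lowers most ratios.

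**Figure D3:**
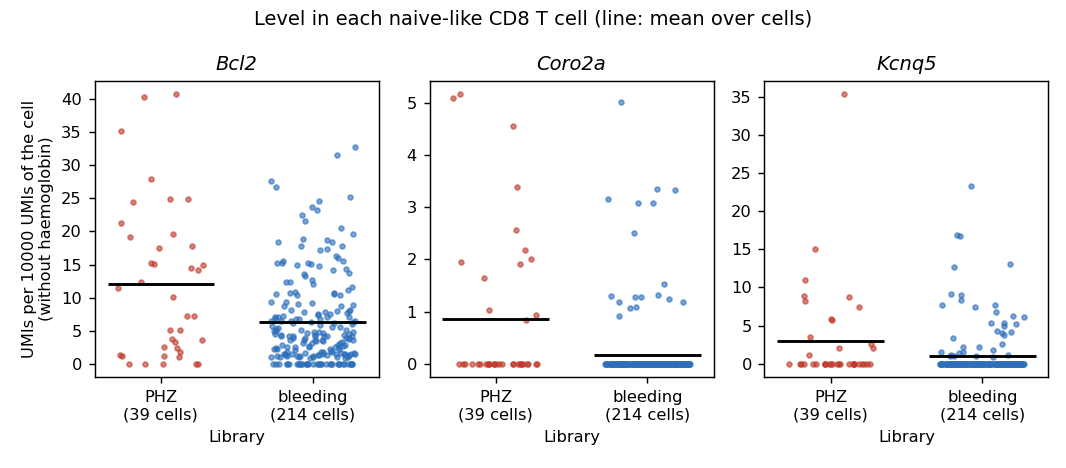
Bcl2, Coro2a and Kcnq5 in each member (points; y axis, UMIs per 10000 UMIs of the cell without haemoglobin) by library (x axis), with the mean over cells as a line. Bcl2 spreads over nearly all cells of both libraries, with medians of 10.0 and 4.21, while Coro2a and Kcnq5 are at 0 in most cells.

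Of the survival and death list, 8 of 19 genes reached 50 CPM, 7 were above a ratio of 1 and 3 past 1.5-fold (Bcl2, the pro-apoptotic gene Bcl2l11 and the p53 target Ccng1), with a median log2 ratio of 0.36 against 0.02 for all genes. Bcl2l11 was at 60.9 and 40.2 CPM, a ratio of 1.52 (0.887 to 2.48) against 0.590 (0.355 to 0.933) in the CD8 T cells with 3 to 9 UMIs, and Ccng1 at 63.8 and 37.6 CPM, a ratio of 1.699 (1.003 to 2.77). Mcl1, another anti-apoptotic gene, was at 206 and 169 CPM (1.22, 0.927 to 1.58). The cytokine receptor list had 14 of 19 measured genes above 1, with Bcl2 as the 1 gene past 1.5-fold. Il7r, the interleukin receptor chain of naive T cells, was at 754 and 578 CPM, a ratio of 1.30 (1.13 to 1.49). Il2rg, the chain it shares with other receptors, was at 276 and 195 CPM, a ratio of 1.42 (1.12 to 1.78). In CD8 T cells with 3 to 9 UMIs Il7r was at 0.943 (0.858 to 1.04) and Il2rg at 1.08 (0.924 to 1.26).

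Receptor and signalling genes differed little. Of 9 genes of the T cell receptor complex list that the rule did not use, 0 were past 1.5-fold either way. Trbc2 was at 847 and 947 CPM (0.894, 0.787 to 1.01) and Cd247, the signalling chain, at 574 and 616 CPM. Without the 7 large cells Trbc2 was at a ratio of 0.830 (0.731 to 0.940). Of the 9 genes, 4 were above a ratio of 1 with the large cells and 2 without them. Of 26 T cell receptor signalling genes 1 was past 1.5-fold, the phosphatase gene Ptpn6 at 0.609. The summed ratio of the signalling list was 1.01 (0.979 to 1.05), and 0.944 (0.913 to 0.976) without the large cells. Themis was at a ratio of 0.757 (0.676 to 0.846) in members and 1.06 (0.993 to 1.12) in the CD8 T cells with 3 to 9 UMIs. Of the 23 naive and quiescence genes measured, 12 were above 1 and the median was 0.04. Igfbp4, a secreted binding protein gene typical of naive T cells, was at 148 and 87.8 CPM, a ratio of 1.68 (1.21 to 2.32). It was at 1.58 (1.31 to 1.90) in CD8 T cells with 3 to 9 UMIs and 1.37 (1.23 to 1.53) in CD4 T cells. Dapl1 was at 1.33 (1.08 to 1.62), and at 1.21 (0.985 to 1.48) without the 7 large cells, and Tsc22d3, a glucocorticoid-induced gene, at 66.7 and 103.7 CPM, a ratio of 0.643 (0.399 to 0.994).

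Of 28 memory genes 11 reached 50 CPM, of which 10 were above a ratio of 1 and 2, Ly6c2 and Itgb1, past 1.5-fold, and the summed level of the list was 1859 and 1815 CPM (1.02, 0.940 to 1.11). Several defining genes had few UMIs. Cd44 had 2 UMIs in PHZ members and 41 in bleeding members, 18 of them outside the 7 large cells, Cxcr3 2 and 4 and Ifng 0 and 0, and Eomes was at 26.1 and 20.1 CPM. Ly6c2, a surface protein gene of activated and memory CD8 T cells, was at 145 and 76.2 CPM, a ratio of 1.90 (1.35 to 2.64), but at 0.831 (0.705 to 0.975) in the CD8 T cells with 3 to 9 UMIs. Of 21 cytotoxic genes, Ctsw alone reached 50 CPM among those not used by the rule, and 6 genes were at 0 in both libraries. Gzmb had 6 UMIs in the PHZ members, all in 1 cell, and 0 in the bleeding members.

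Homing genes split. Of 18 measured, Itgal and Itgb1 were past 1.5-fold upwards and Coro1a and Gpr183 downwards. The integrin gene Itgal was at 180 and 107 CPM, a ratio of 1.67 (1.24 to 2.24), and Itgb1 at 92.8 and 55.0 CPM, a ratio of 1.69 (1.10 to 2.53) that was 2.45 (1.55 to 3.81) without the 7 large cells. Coro1a, an actin regulator that naive T cells need for survival, was lower at 476 and 723 CPM, a ratio of 0.658 (0.556 to 0.775), found in 38 of 39 and 213 of 214 cells. In CD8 T cells with 3 to 9 UMIs Itgal was at 1.15 (0.945 to 1.40) and Coro1a at 0.922 (0.844 to 1.01). S1pr1, the receptor for exit from lymphoid organs, was at 217.5 and 222 CPM (0.979, 0.755 to 1.254), and Ccr9, the gut homing receptor, at 165 and 117 CPM (1.41, 1.03 to 1.89, and 1.31, 0.958 to 1.76, without the large cells).

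Lists of stress, oxygen and iron metabolism had summed ratios below 1, and without the 7 large cells their intervals included 1. Haem and iron genes had a summed ratio of 0.815 with them and 1.07 (0.960 to 1.19) without them, antioxidant genes 0.825 and 1.04 (0.928 to 1.16), heat shock genes 0.916 and 1.05 (0.980 to 1.12), proliferation genes 0.756 and 1.09 (0.967 to 1.22) and oxidative phosphorylation genes 0.921 and 1.02 (0.971 to 1.07). Of 14 type I interferon genes 8 were above 1 and 2 past 1.5-fold, Ifi209 at 1.66 (1.24 to 2.21) and Slfn5 at 2.02 (1.22 to 3.23), with a median of 0.04. Both were below 1 in the CD8 T cells with 3 to 9 UMIs, at 0.814 and 0.825. Of 18 MHC class I genes 13 were above 1, 0 past 1.5-fold upwards and 1 downwards, the peptide transporter gene Tap1 at 66.7 and 105 CPM (0.637, 0.395 to 0.983), B2m being at 1447 and 1434 CPM.

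By the rule for named genes, 32 genes were higher and 20 lower in PHZ members, and the first 12 of each are given. Coro2a, an actin-binding protein gene, was at 95.7 CPM in PHZ and 15.9 CPM in bleeding members. Those were 33 and 30 UMIs, in 13 of 39 and 18 of 214 cells, and the ratio was 6.03 (3.57 to 10.2). Kcnq5, a potassium channel gene, was at 313 and 117 CPM, in 14 and 36 cells, a ratio of 2.67 (2.10 to 3.37), with 28 of its 108 PHZ UMIs in 1 cell. In CD8 T cells with 3 to 9 UMIs Coro2a was at 97.0 and 30.3 CPM, a ratio of 3.20 (2.40 to 4.24), and Kcnq5 at 152 and 93.9 CPM, a ratio of 1.61 (1.32 to 1.97). In CD4 T cells they were at 1.04 (0.739 to 1.43) and 1.42 (1.22 to 1.65). B cells also held both, with Coro2a at 88.8 and 103 CPM and Kcnq5 at 799.7 and 766 CPM. A part of other cells' RNA in the members' values was not tested.

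The other genes named as higher had between 20 and 51 PHZ UMIs. They were Setbp1 (2.79), Tti1 (3.09), 1700012D14Rik (3.66), Ikzf2, which encodes the transcription factor HELIOS (2.80), Ggta1 (2.74), Nt5e, which encodes the adenosine-forming enzyme CD73 (2.42), the bicarbonate transporter gene Slc4a7 (2.24), Prag1 (2.55) and Tnfsf8, the CD30 ligand gene (1.98). In the CD8 T cells with 3 to 9 UMIs Coro2a, Kcnq5, Bcl2 and Setbp1 were past 1.5-fold upwards, while Tti1 was at 0.665 and Slc4a7 at 0.730. Setbp1 was at 22.3 and 14.8 CPM there (1.51, 0.861 to 2.54) and at 280 and 394 CPM in B cells. Ikzf2, with 25 PHZ UMIs in 6 cells, was at 21.2 and 52.0 CPM there, a ratio of 0.407 (0.240 to 0.652), and at 1.13 (0.425 to 2.58) in members without the 3 highest cells of each library. Without those cells Setbp1 was at 1.66 (0.699 to 3.57), and the intervals of Ggta1, Nt5e, Slc4a7 and Prag1 also included 1. Leaving out 3 of 39 PHZ and 3 of 214 bleeding cells by itself lowers most ratios. It therefore cannot show how far these ratios rest on a few cells.

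The genes named as lower had between 5 and 59 PHZ UMIs. Tmem14c, a haem synthesis gene, was at 43.5 and 137.5 CPM, a ratio of 0.316 (0.175 to 0.532), the lysosomal gene Ppt1 at 0.284 (0.128 to 0.551) and the chaperone gene Hsp90aa1 at 171 and 294 CPM, a ratio of 0.582 (0.437 to 0.762). Single bleeding cells held 141 of 260 Tmem14c UMIs, 55 of 174 Ppt1 UMIs and 149 of 556 Hsp90aa1 UMIs, and without the 7 large cells the ratios were 0.701 (0.379 to 1.21), 0.605 (0.266 to 1.21) and 0.849 (0.632 to 1.12). The circadian clock genes Clock and Arntl were at 23.2 and 71.9 CPM (0.323, 0.136 to 0.654) and at 14.5 and 55.0 CPM (0.264, 0.0838 to 0.635), and at 0.297 (0.126 to 0.603) and 0.243 (0.0772 to 0.586) without the large cells. In CD8 T cells with 3 to 9 UMIs they were at 1.34 (1.005 to 1.76) and 1.20 (0.809 to 1.73). Cpm, Acsl5, 2610507B11Rik, Mosmo, Bms1 and the long non-coding gene 1700062C10Rik were between 0.277 and 0.446 in members and between 0.909 and 1.253 in those cells. Nfia, a transcription factor gene, was at 23.2 and 61.9 CPM, a ratio of 0.375 (0.158 to 0.763), and alone of the 12 was past 1.5-fold in the CD8 T cells with 3 to 9 UMIs, at 25.6 and 49.5 CPM, a ratio of 0.518 (0.321 to 0.799).

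**Figure D4:**
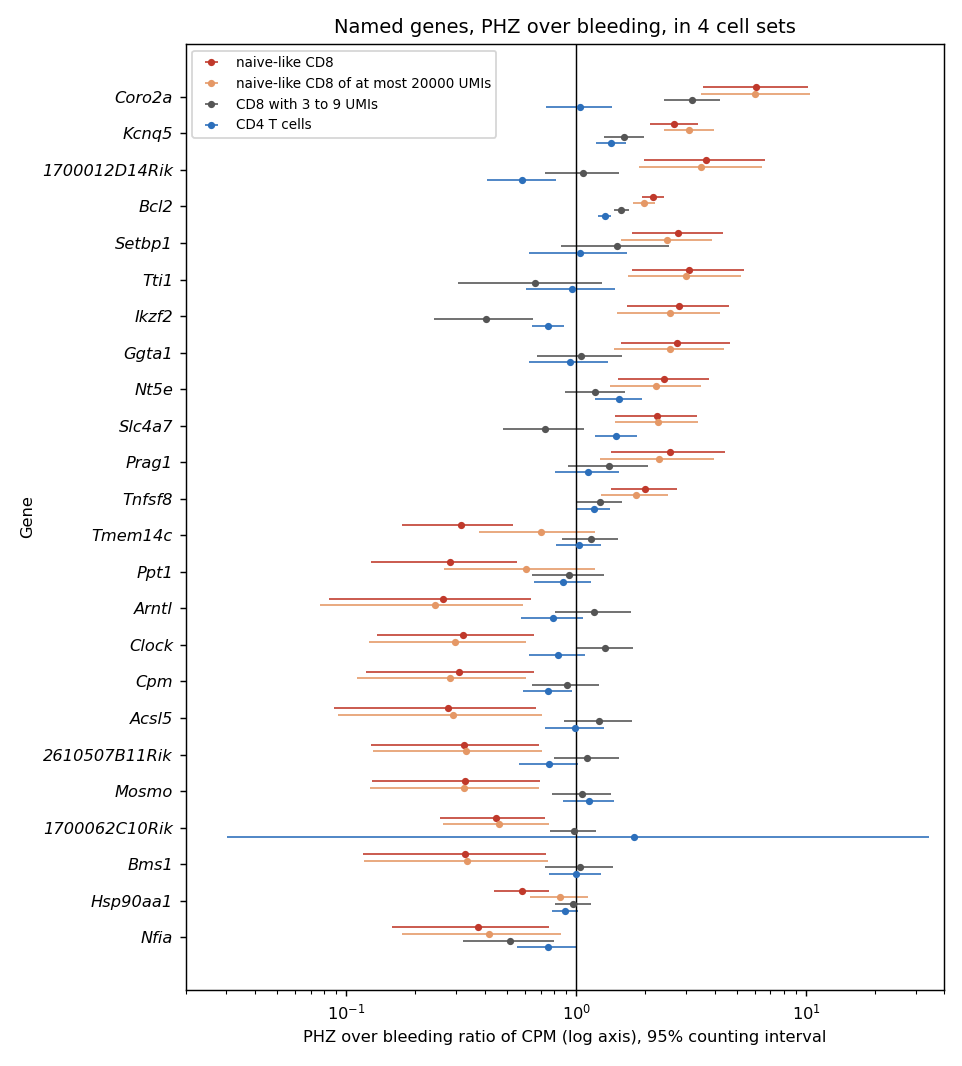
PHZ over bleeding ratio of CPM (x axis, log scale; bars are 95% intervals for counting error only) for the 24 named genes (y axis) in the members, the members of at most 20000 UMIs, the CD8 T cells with 3 to 9 UMIs and CD4 T cells. Coro2a, Kcnq5, Bcl2 and Tnfsf8 lie above 1 with their whole interval in both CD8 sets, Tnfsf8 narrowly at 1.26 (1.005 to 1.58) in the CD8 T cells with 3 to 9 UMIs. Clock and Arntl lie below 1 in the members and above 1 in those cells.

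The members were then set against CD4 T cells of the same libraries, which passed the same filters with 0 UMIs of Cd8a and Cd8b1 and at least 1 of Cd4. The 2 libraries served as replicates in edgeR's quasi-likelihood test, fitted on 4 sums with library as a covariate. Benjamini-Hochberg adjustment was over 9333 genes. The fit had 1 residual degree of freedom and shared its estimate of variation over genes. The p-values thus set a gene's difference mainly against this shared variation, and less against its own variation between the 2 libraries. These libraries also differ in treatment. A small p-value does not show that a difference repeats in both. Cd74 had an adjusted p of 1.30e-17, with log2 differences of 3.77 in the bleeding and -0.49 in the PHZ library. At an adjusted p under 0.05, 344 genes (3.69%) were higher and 344 (3.69%) lower in CD8 members. Of these 688 (7.37%), 665 had the same direction in both libraries. A CD4 T cell with 0 Foxp3 UMIs can still be a regulatory T cell, so genes of those cells belong to the CD4 side.

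The gene with the largest difference was Gm44174, a long non-coding RNA gene within the Cd8 locus. It was at 287 CPM in PHZ members and 304 CPM in bleeding members, against 0 and 0.581 CPM in CD4 T cells, with 0 and 3 UMIs there. The fitted log2 difference was 9.25 (adjusted p 7.60e-30), a value that depends on the prior count of the fit. Members and CD4 T cells were chosen by their Cd8a and Cd8b1 UMIs. A gene that lies between these genes is not independent of that choice, so its difference is given as a description. In GRCm38 the gene lies on chromosome 6 from 71353035 to 71373284 on the plus strand, between Cd8b1, which ends at 71337494, and Cd8a, which starts at 71373427, both also on the plus strand. Its annotated end is 142 bases before the start of Cd8a, and 15540 bases separate the end of Cd8b1 from its start. The antisense gene Gm44175 lies within it, and the use of strand in counting is not given in the sources used here. Over the CD8 sets its level stayed in the same range, with 391 and 356 CPM in the cells with 3 to 9 UMIs and 491 and 410 CPM in those with 10 or more.

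The 250 bases before the start of Cd8a are shown because they hold the gap between the 2 genes (RefSeq, GRCm38.p6, chr6:71373177-71373426, plus strand). Capitals mark the 142 bases after the annotated end of Gm44174.
Cd8a: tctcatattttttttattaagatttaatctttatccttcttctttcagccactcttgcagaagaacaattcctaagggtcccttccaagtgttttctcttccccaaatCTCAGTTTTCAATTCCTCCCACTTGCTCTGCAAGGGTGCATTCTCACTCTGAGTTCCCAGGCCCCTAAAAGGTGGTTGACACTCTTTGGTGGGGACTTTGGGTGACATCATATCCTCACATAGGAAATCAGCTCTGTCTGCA

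Of 21 homing and adhesion genes tested, 4 were higher and 6 lower in members, with a median log2 difference of -0.26. Itgae, the CD103 integrin gene, was at 95.7 and 127 CPM in members and 2.07 and 4.46 CPM in CD4 T cells, a log2 difference of 4.99 (adjusted p 7.77e-19). Ccr9 was at 165 and 117 CPM against 2.76 and 7.94 CPM, a difference of 4.36 (adjusted p 8.32e-18). Both belong to the list of recent thymic emigrant genes, of which 3 of 9 tested were higher and 1 lower. The third, Cd24a, was higher in the bleeding library (1.85) and not in the PHZ library (-0.04), and its fitted difference was -0.20 without the large cells. Ly6c2 was at 145 and 76.2 CPM against 3.45 and 8.52 CPM, a log2 difference of 3.77 (adjusted p 2.90e-14), while its relative Ly6c1, with 0 and 2.12 CPM against 76.5 and 79.2 CPM, differed the other way by -5.38 (adjusted p 1.22e-14). These are members of a multigene family whose reads may be shared.

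Transcription factors of the lineage choice separated the cells in both libraries. Runx3 was at 220 and 217 CPM in members and 64.1 and 49.2 CPM in CD4 T cells, a log2 difference of 2.07 (1.84 in the PHZ and 2.16 in the bleeding library; adjusted p 1.87e-15). Zbtb7b was at 0 and 1.06 CPM in members and 46.2 and 50.6 CPM in CD4 T cells (adjusted p 6.72e-12). Runx1 was lower in members, at 197 and 268 CPM against 636 and 617 CPM, a difference of -1.29 (adjusted p 1.28e-13), as were Tox (-0.93), Gata3 (-1.17) and Bcl11b (-0.58). Of the 15 lineage transcription factor genes tested, 2 were higher and 8 lower. Of 11 CD4 helper genes 0 were higher and 8 lower, among them Cd40lg, the ligand by which helper cells activate B cells, at 2.90 and 1.59 CPM against 80.7 and 96.7 CPM.

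Most tested genes of the T cell receptor complex list were lower in CD8 members. The list also holds Cd5, Cd6 and Cd28, which are not parts of the complex, and the Cd3 genes of the rule were left out. Of 9 genes tested 0 were higher and 7 lower, with a median log2 difference of -0.39 against 0.0034 over all genes. Trac, which encodes the constant part of the alpha chain, was at 270 and 271 CPM against 411 and 407 CPM, a difference of -0.54 (adjusted p 0.000281). Trbc2 differed by -0.39 (adjusted p 0.000379). Cd5, which dampens receptor signals, was at 136 and 99.97 CPM against 303 and 330 CPM, a difference of -1.51 (adjusted p 1.71e-12), and the co-stimulatory receptor gene Cd28 by -1.20 (adjusted p 5.26e-09). Without the large cells 7 of 9 were again lower. Bcl2 differed by 0.28 (adjusted p 0.0736), with 0.69 in the PHZ and -0.04 in the bleeding library.

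Of 25 naive and quiescence genes tested 3 were higher in members and 5 lower, and 6 and 6 without the large cells, while Lef1 (0.01), Tcf7 (-0.14), Ccr7 (-0.26) and S1pr1 (-0.21) did not pass the threshold. Of those that passed, Dapl1 was higher by 0.45 (adjusted p 0.00971) and Klf3 by 0.40 (adjusted p 0.0173), and Igfbp4 was lower by -1.33 (adjusted p 5.22e-11). Themis differed by 0.11 (adjusted p 0.596). Of 24 memory genes tested 3 were higher in members, 7 lower and the rest did not pass. The ceiling on Nkg7, Ccl5 and Klrd1 takes CD8 T cells with more Cd44 out of the members, as given above, so these genes are not independent of how the 2 sets were chosen. The higher ones were Eomes at 26.1 and 20.1 CPM against 1.38 and 2.13 CPM (adjusted p 5.53e-06), Ly6c2 and Il2rb (0.74, adjusted p 0.0326). Cd44 was lower at 5.80 and 21.7 CPM against 86.9 and 67.4 CPM (-1.91, adjusted p 3.50e-07, and -2.74 without the large cells), as were the calcium-binding protein genes S100a4 (-4.02) and S100a6 (-3.11). Of 20 translation factor genes 6 were higher and 0 lower, with Eef1b2 at 1981 and 1932 CPM against 1457 and 1555 CPM, a difference of 0.43 (adjusted p 1.05e-05).

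The other genes named as higher in members were Fam241a (2.63), the cysteine protease gene Ctsw of cytotoxic cells (2.59), Cst3 (2.41), Ms4a4c (1.86), Dnajc15 (1.82), Dpp4, which encodes the peptidase CD26 (1.80), and Epsti1 (1.75). Cst3, the cystatin C gene, abundant in dendritic cells, depended on the large cells, and its difference was -0.081 without them. Those named as lower were the sialyltransferase gene St8sia6 (-3.73, at 8.70 and 13.8 CPM against 160 and 181 CPM), Ly6a (-3.27), Izumo1r, the folate receptor gene of regulatory T cells (-2.92), B630019A10Rik (-2.27), Tesc (-2.16), Ikzf2 (-2.12), Trat1, a T cell receptor adaptor gene (-2.08), Nxpe3 (-1.95), Stk39 (-1.83), the ceramide synthase gene Cers6 (-1.56), Tspan32 (-1.55) and Cd5. Without the large cells 883 genes were called in all.

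**Figure D5:**
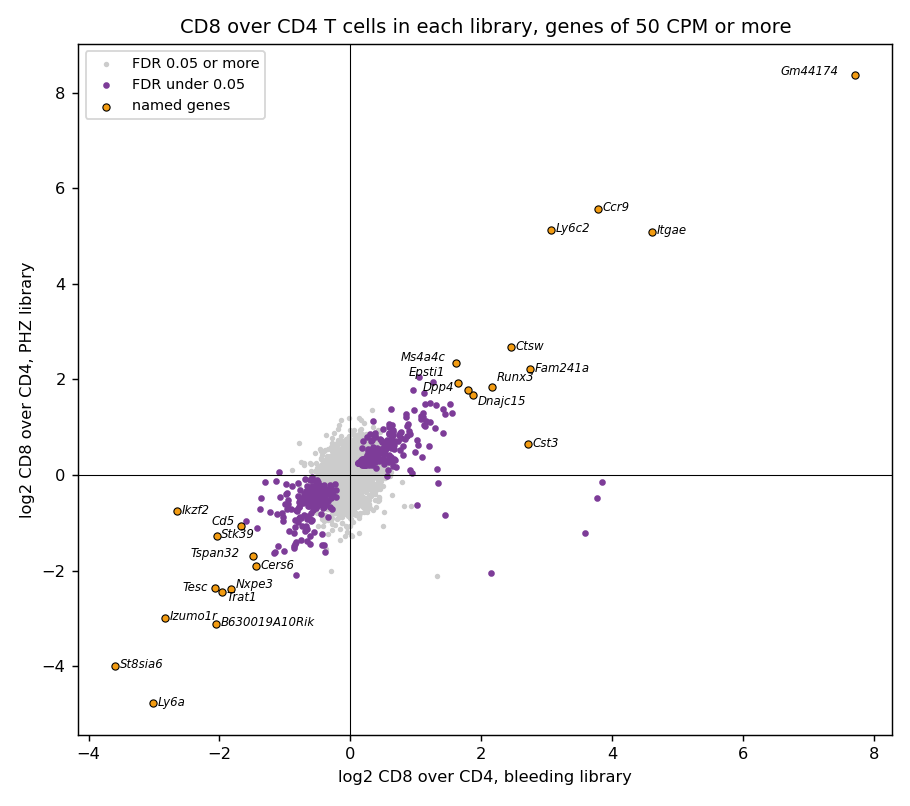
Log2 ratio of CD8 members over CD4 T cells in the bleeding library (x axis) and the PHZ library (y axis) for genes with a mean of at least 50 CPM; purple points are under an adjusted p of 0.05 and named genes are orange. The named genes have the same sign on both axes, while a few purple points at the right lie below 0 in the PHZ library.

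A promoter of each is shown for the lineage factors, since Runx3 and Zbtb7b differed in opposite directions and RUNX proteins bind the letters TGTGGT. These genes, the windows and the letters were chosen after their values were seen, from 3 strings of letters tried. Each line is the 250 bases before a RefSeq start in GRCm38.p6, with capitals at TGTGGT or its reverse complement ACCACA; the matches do not overlap. The Runx3 window is chr4:135120395-135120644 on the plus strand with 2 matches, and the Zbtb7b window is chr3:89387672-89387921 on the minus strand with 1 match.
Runx3: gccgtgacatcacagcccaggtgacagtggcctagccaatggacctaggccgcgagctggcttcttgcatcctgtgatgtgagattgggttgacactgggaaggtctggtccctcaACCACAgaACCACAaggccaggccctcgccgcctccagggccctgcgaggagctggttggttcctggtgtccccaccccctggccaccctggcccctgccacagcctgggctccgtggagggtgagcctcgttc
Zbtb7b: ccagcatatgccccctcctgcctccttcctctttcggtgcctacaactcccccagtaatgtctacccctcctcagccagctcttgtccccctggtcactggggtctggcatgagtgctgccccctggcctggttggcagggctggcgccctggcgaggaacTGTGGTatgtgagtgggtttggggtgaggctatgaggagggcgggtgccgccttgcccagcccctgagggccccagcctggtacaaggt
The other annotated window of each gene held 0 matches, as did that of Cd8a above. Of 32851 such windows of all genes 14.0% held a match, and of the windows of the named genes 4 of 11 did among those higher and 3 of 9 among those lower in members.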

How the data were processed

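Spleen cells were profiled with the 10x Chromium Next GEM 3ʹ v3.1 chemistry, per the labels' protocols, in 1 library per treatment. The deposited values are UMI counts per gene and barcode, made by the authors with Cell Ranger 7.0.0 on mm10 per the submitters' processing notes; the matrix header names version 4. The deposited matrices hold all 1608470 and 1698351 barcodes with 128130213 and 145260780 UMIs, so cells were chosen by the rule given above. Counts were summed over cells and divided by the sum without haemoglobin genes to give CPM. Ratios have exact conditional 95% intervals and shares Clopper-Pearson intervals, which cover counting error only. CD8 and CD4 T cells were compared with edgeR 4.0.16 (R 4.3.3) on 4 sums with 1 residual degree of freedom; DESeq2 1.42.0 was an alternative. The steps were tested on simulated data. Other tools were numpy 2.4.6, scipy 1.17.1, pandas 2.3.3 and scanpy 1.11.5 with Scrublet. The 332 and 754 cells with the highest Scrublet scores were taken as doublets, numbers set from the cell number at 0.8% per 1000 cells. These cells were kept except in an alternative. A gene was named between treatments if its higher library held 20 or more UMIs and 50 or more CPM, if that level was no less than 20% of its highest in B, erythroid or myeloid cells, and if an interval bound lay beyond 1.25; the first 12 in each direction, ranked by the bound nearest 1, were named. Genes of the rule, sex-linked genes, and genes of immunoglobulins, receptor variable segments, ribosomal proteins, mitochondria and haemoglobin were left out. Between CD8 and CD4 T cells they had an adjusted p under 0.05, 1 direction in both libraries and a mean of at least 50 CPM, and the 12 largest differences each way were named. From a list, up to 6 members with the most UMIs or a bound beyond 1.5 could be named; others named were chosen after their values were seen. The members and the 31 gene lists were chosen with earlier results of these data known. Alternatives changed the thresholds of the rule, doublets, scaling, thinning, the CPM minimum and the test. Sequences and gene positions come from RefSeq GRCm38.p6 and the GENCODE annotation of GRCm38, in which 32158 of 32285 genes were matched. One gene of the lists is not reported here.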

Additional observations from a re-analysis of the deposited data

Results flagged for a closer look

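1700012D14Rik, a non-coding gene, had a PHZ over bleeding ratio of 3.66 (1.97 to 6.65) in the naive-like CD8 T cells and 0.584 (0.409 to 0.815) in CD4 T cells, so the intervals lay on opposite sides of 1. Ikzf2 had ratios of 2.80 (1.66 to 4.62) and 0.753 (0.640 to 0.883) in the same way, with 25 PHZ UMIs in 6 CD8 cells. These differences between cell types were not tested. Of the genes called between CD8 and CD4 T cells, 23 had opposite directions in the 2 libraries, among them Cd74 with 3.77 in the bleeding and -0.49 in the PHZ library on the log2 scale. Without the members of over 20000 UMIs 8 of the 23 were still called. The difference between the libraries was not tested for these genes.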

How the results depend on the processing

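The share of naive-like CD8 T cells kept a PHZ over bleeding ratio between 0.229 and 0.290 and their number per CD4 T cell one between 0.579 and 0.734 over the alternatives run. Counts of genes past 1.5-fold moved more. Of genes higher in PHZ CD8 cells and genes lower in PHZ CD8 cells there were 1088 and 501 with 0 UMIs of Nkg7, Ccl5 and Klrd1, 14 and 18 with at most 9, 21 and 336 without the 3 highest cells of each gene in each library (3 of 39 and 3 of 214 cells), 890 and 1091 at 10 CPM and 25 and 29 at 100 CPM, and 295 were lower with 1 or more UMIs of Cd8a and Cd8b1. Of genes higher and lower in CD8 than in CD4 T cells there were 69 and 70 with 1 or more UMIs of Cd8a and Cd8b1, 52 and 48 with 0 UMIs of the cytotoxic genes, 722 and 684 with at most 9, 108 and 56 with each cell thinned to 1000 UMIs and 85 and 60 with DESeq2. With each library left out in turn, 322 to 344 of the genes called higher and 343 to 344 of those called lower kept their direction, with no test. Log2 ratios changed sign with 0 UMIs of the cytotoxic genes for 1700012D14Rik (-0.53), Tnfsf8 (-1.26), Cpm (0.13) and Hsp90aa1 (0.75), with at most 9 for Ikzf2 (-0.30), and for CD8 over CD4 without the large cells for Cst3 (-0.081). The cause was not tested. The ceiling of 9 and the limit of 20000 UMIs were chosen after seeing the data. The 39 PHZ members limit depth to 344787 UMIs. No paired analysis was possible because each treatment had 1 library.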

Other observations

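Among CD8 T cells with 3 to 9 UMIs of Nkg7, Ccl5 and Klrd1, Gzmb, which encodes granzyme B, had 51 UMIs in 3 of 85 PHZ cells, 49 of them in 1 cell, and 0 in the 429 bleeding cells. Gene segments of the T cell receptor were too sparse to describe in the naive-like CD8 T cells, with 8 and 57 UMIs over 35 Trbv segments and 7 and 59 over 128 Trav segments.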
